A study of Arabidopsis thaliana with 7 samples.

Results

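Transcripts of 10 genes that mark sulfur deficiency or catalyse sulfate reduction were followed in roots of Arabidopsis thaliana. These are SDI1 and SDI2, LSU1, LSU2 and LSU3, GGCT2;1, the APS reductase genes APR1, APR2 and APR3, and the sulfite reductase gene SIR. They were taken by gene identifier from the 32833 genes of the count tables as named genes of the pathway, with earlier results of these data known and with no value in the rule, and all 10 passed the filter on low counts, which left 20600 genes.

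The study compared wild-type Col-0 with cepd, a quadruple mutant of the glutaredoxin-like genes ROXY6, ROXY7, ROXY8 and ROXY9 (the CEPD genes) made by CRISPR/Cas9 editing in the Col-0 background. Both genotypes grew in continuous light, first for 7 d on FN (full nutrition), in which nitrogen came from 2 mM KNO3 together with NH4NO3 and glutamine at 1 mM each. For the last 2 d before harvest they stood on LN (low nitrogen), in which KNO3 was reduced to 0.1 mM and NH4NO3 to 50 µM, with 3 mM KCl in exchange. The LN recipe of the study lists no glutamine. Sulfate was supplied throughout, as 1 mM MgSO4 and 2 mM K2SO4, so no sulfur starvation was imposed. Each library came from the roots of 50 seedlings from 5 plates in 1 of 4 independent experiments, with 3 Col-0 libraries (experiments 1, 3 and 4) and 4 cepd libraries (experiments 1 to 4). The submitters had left out 1 Col-0 sample that held leaf material. The mutant is represented by 1 line, and its FN state, other nitrogen supplies and single roxy mutants are not analysed here.

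In plants, sulfate taken up by roots is activated by ATP sulfurylase to adenylyl sulfate (APS), which APS reductase reduces to sulfite and sulfite reductase to sulfide. Sulfide is then joined with O-acetylserine to give cysteine, the precursor of methionine and glutathione. When sulfate runs short or O-acetylserine accumulates, SDI, LSU, GGCT2;1 and APR transcripts rise with those of sulfate transporters, and this set serves as a readout of the sulfur status. The CEPD proteins move from shoot to root and interact with the bZIP factors TGA1 and TGA4, which bind DNA at TGACG.

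Libraries held 30758339 to 46611731 counts. Values are given as CPM, counts relative to the library total after scaling by TMM (edgeR's correction for library composition), with SD between libraries. A log2FC is cepd over Col-0 with its standard error (SE), and each adjusted p is from edgeR's quasi-likelihood test with Benjamini-Hochberg adjustment over all 20600 genes. The mutated genes gave few counts. ROXY6 was at 5.64 ± 0.376 CPM in Col-0 (SD, n = 3) and at 3.77 ± 0.753 CPM in cepd (SD, n = 4; adjusted p = 0.0323 from edgeR, and from 0.00955 to 0.100 over the alternatives, the last without Col-0 replicate 4). ROXY7, ROXY8 and ROXY9 had means at or below 1.88 CPM in both genotypes, and counts per gene do not show the edited bases.

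Some leaf and root marker genes differed between the genotypes. Of 9 leaf markers, 6 were higher in cepd at an adjusted p under 0.05 and none lower. Among all tested genes, 9.64% were higher and 8.30% lower. The summed level of the 9 markers ran from 159 to 215 CPM in Col-0 libraries and from 380 to 535 CPM in cepd libraries. No marker was at 0. The paper reports photosynthesis among the terms enriched in genes that were higher in cepd roots. RBCS1A, RCA and LHCB1.3 had log2FC of 1.39, 0.93 and 1.59. The adjusted p of LHCB2.2, named after its values were seen, was above 0.05 in 6 of 13 alternative analyses (0.0182 to 0.134, the highest without Col-0 replicate 3). Of 6 root markers, the hair genes COBL9 (log2FC -0.61) and EXPA7 (log2FC -0.76) fell and PYK10, a beta-glucosidase of endoplasmic reticulum bodies, rose (log2FC 1.05), with all 6 detected in both genotypes. The part of these shifts in the values of the 10 sulfur genes was not tested, and in whole roots fewer cells of a type and less RNA per cell cannot be told apart.

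Among the 10 genes, SDI1, LSU2, GGCT2;1 and APR1 were lower in cepd and APR3 was higher, while SDI2, LSU1, LSU3, APR2 and SIR did not pass the test. The set therefore did not move one way. Members of each of the SDI, LSU and APR families stood on different sides of the threshold, which by itself does not show that relatives differed. At an adjusted p under 0.05, 4 of 10 were lower and 1 of 10 was higher, whereas 8.30% of all tested genes were lower and 9.64% higher. With the fold threshold of the study (an absolute log2FC over 1) only GGCT2;1 was called lower and none higher, against 2.45% and 1.93% of all tested genes. Every cepd library was below every Col-0 library for 4 genes (13.8% of all tested genes) and above for 1 gene (15.3%). The median log2FC was -0.08 over the 10 genes and 0.01 over all tested genes.

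**Figure D1:**
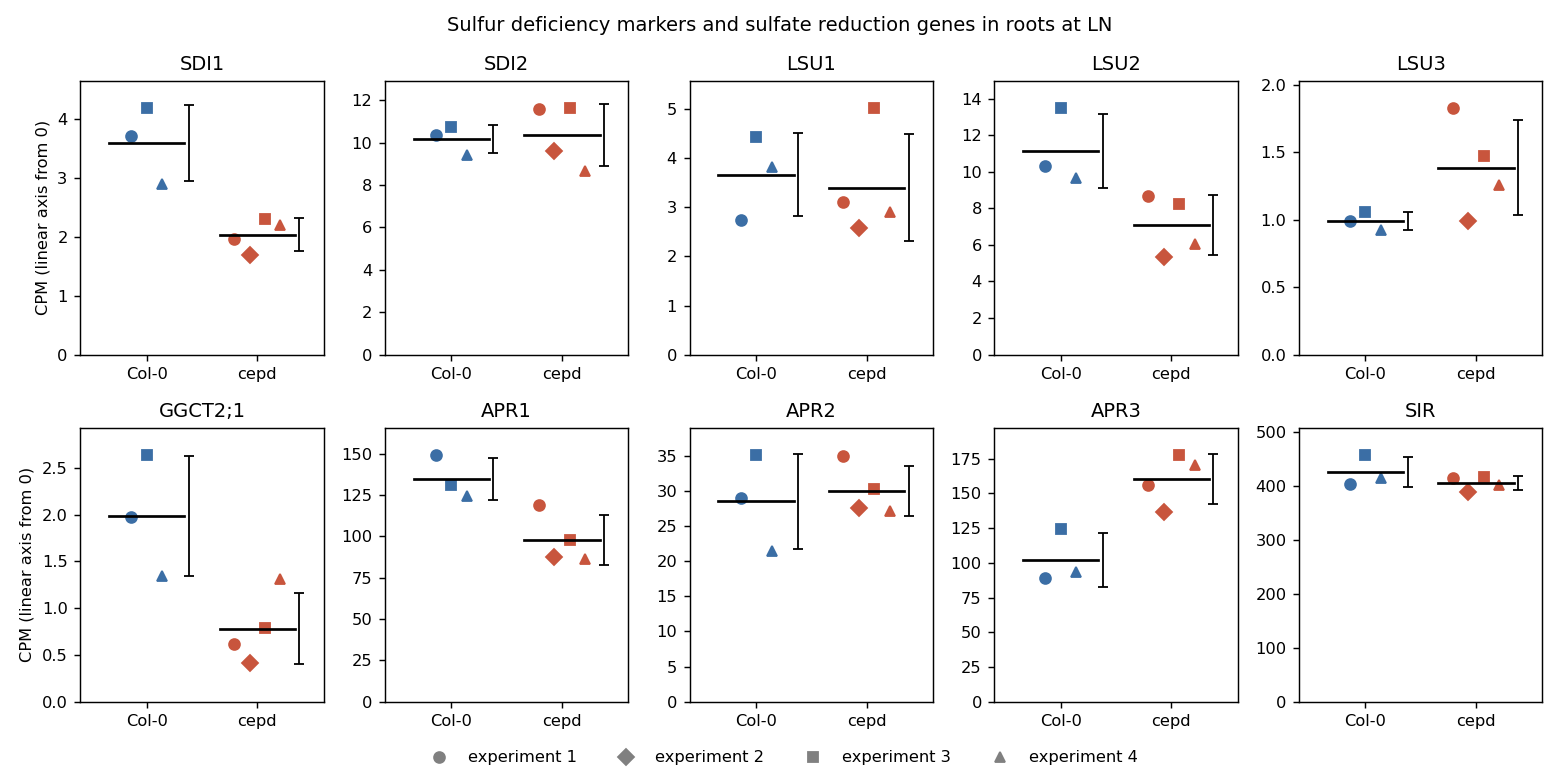
CPM of the 10 genes in each library, Col-0 in blue and cepd in red, with a marker shape for each experiment, a line at the mean and a bar for the SD, each panel on its own linear axis from 0. The cepd points lie below all Col-0 points for SDI1, LSU2, GGCT2;1 and APR1 and above them for APR3.

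SDI1 (AT5G48850, chr5:19805437-19807853, minus strand, TAIR10.1) and SDI2 (AT1G04770, chr1:1336274-1337849, minus strand) encode related tetratricopeptide-repeat proteins that are induced by sulfur deficiency. SDI1 is known to bind MYB28 and to restrain glucosinolate synthesis, which spares sulfur. Its transcript measured 3.71, 4.18 and 2.90 CPM in Col-0 replicates 1, 3 and 4, and 1.96, 1.69, 2.31 and 2.201 CPM in cepd replicates 1 to 4. The highest cepd library thus stayed under the lowest Col-0 library. SDI1 fell from 3.60 ± 0.646 CPM (SD, n = 3) to 2.04 ± 0.275 CPM (SD, n = 4), with a log2FC of -0.81 (SE 0.16, adjusted p = 0.00891 from edgeR). Within experiments 1, 3 and 4 the log2 difference was -0.92, -0.86 and -0.40. SDI1 passed in all 13 alternative analyses that kept it, with adjusted p between 0.000532 and 0.0454.

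For SDI2, the Col-0 libraries gave 10.3, 10.7 and 9.42 CPM and the cepd libraries 11.6, 9.59, 11.6 and 8.65 CPM. The highest and the lowest value both came from cepd. Its log2FC was 0.03 (SE 0.12, adjusted p = 0.886 from edgeR). The gene shares 431 bp with AT1G04760 on the other strand, and the library kit does not mark strand.

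The 300 bases before the annotated start of SDI1 (chr5:19807854-19808153, minus strand, TAIR10.1) and the 200 bases before that of SDI2 (chr1:1337850-1338049, minus strand) are shown because they hold the motif that TGA factors bind. Capitals mark TGACG and GAGAC, the core of a sulfur-responsive element, on either strand, GAGAC reading GTCTC on the opposite one.
SDI1: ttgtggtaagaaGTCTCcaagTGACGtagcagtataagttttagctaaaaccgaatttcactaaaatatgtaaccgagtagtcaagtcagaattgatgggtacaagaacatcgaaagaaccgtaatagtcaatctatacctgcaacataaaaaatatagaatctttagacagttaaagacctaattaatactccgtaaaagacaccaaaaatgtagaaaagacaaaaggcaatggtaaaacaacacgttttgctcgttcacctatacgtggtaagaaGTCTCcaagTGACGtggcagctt
SDI2: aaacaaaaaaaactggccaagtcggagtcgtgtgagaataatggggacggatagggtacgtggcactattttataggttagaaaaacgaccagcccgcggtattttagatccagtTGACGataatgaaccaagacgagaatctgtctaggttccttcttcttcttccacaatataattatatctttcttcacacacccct
In SDI1 a stretch of 25 bases that includes a GTCTC and a TGACG occurred identically 298 to 274 and 33 to 9 bases before the start, at a distance of 265 bases. In SDI2 the TGACG began 85 bases before the start.

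LSU1 (AT3G49580, chr3:18374908-18375940), LSU2 (AT5G24660, chr5:8443279-8444101) and LSU3 (AT3G49570, chr3:18372404-18373147), all on the minus strand, encode small coiled-coil proteins named RESPONSE TO LOW SULFUR, and LSU1 and LSU3 are neighbours on the chromosome. LSU2 was the most abundant of them and the only one to pass the test. It stood at 10.3, 13.5 and 9.68 CPM in the Col-0 libraries and at 8.66, 5.35, 8.26 and 6.05 CPM in the cepd libraries. All cepd values were under the Col-0 range, by a small margin for replicates 1 and 3. LSU2 fell from 11.2 ± 2.03 CPM (SD, n = 3) to 7.08 ± 1.63 CPM (SD, n = 4), with a log2FC of -0.65 (SE 0.18, adjusted p = 0.0359 from edgeR). The adjusted p lay between 0.00525 and 0.151 over the alternatives and was above 0.05 without Col-0 replicate 3 (0.151), without cepd replicate 2 (0.0768) or without cepd replicate 4 (0.0813), while each experiment gave a negative difference (-0.25, -0.70 and -0.68 on the log2 scale).

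LSU1 measured 2.75, 4.43 and 3.83 CPM in Col-0 against 3.11, 2.58, 5.02 and 2.91 CPM in cepd. The genotypes overlapped, and the log2FC was -0.09 (SE 0.24, adjusted p = 0.828 from edgeR). LSU3 was the scarcest, at 0.986, 1.06 and 0.923 CPM in Col-0 and 1.82, 0.987, 1.47 and 1.26 CPM in cepd. Only cepd replicate 2 fell within the Col-0 range, the other 3 lying above it. Its log2FC of 0.49 (SE 0.22) did not pass, with an adjusted p of 0.160 from edgeR and of 0.0511 with the experiment as a block (0.0511 to 0.346 over the alternatives). The 3 genes are close relatives, and reads shared between copies could have been split or dropped in the authors' counting.

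GGCT2;1 (AT5G26220, chr5:9162969-9164884, minus strand) encodes a cytosolic gamma-glutamyl cyclotransferase that breaks down glutathione and so returns its cysteine. Col-0 replicates 1, 3 and 4 gave 1.97, 2.63 and 1.35 CPM, from 74, 97 and 51 counts. In cepd replicates 1 to 4 it gave 0.617, 0.414, 0.790 and 1.31 CPM, from 23, 13, 37 and 50 counts. The last of these was almost at the level of Col-0 replicate 4 of the same experiment, so that the groups were separated by less than the counting error of these libraries. An exact 95% Poisson interval ran from 37.1 to 65.9 for the 50 counts and from 38.0 to 67.1 for the 51 counts, counting error only. GGCT2;1 fell from 1.98 ± 0.644 CPM (SD, n = 3) to 0.783 ± 0.384 CPM (SD, n = 4), which was the largest change in size among the 10 genes, with a log2FC of -1.32 (SE 0.35, adjusted p = 0.0279 from edgeR). The difference within experiments 1, 3 and 4 was -1.66, -1.73 and -0.04 on the log2 scale. With the experiment as a block the adjusted p was 0.0541, and it was 0.124 without Col-0 replicate 3 and 0.0703, 0.0628 and 0.0676 without cepd replicates 1, 2 and 3 (0.00340 to 0.124 over the alternatives).

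The 200 bases before the start of GGCT2;1 (chr5:9164885-9165084, minus strand, TAIR10.1) follow, because they hold both sulfur-related motifs. Capitals mark GTCTC, which is GAGAC on the opposite strand, and TTCAATG, which is CATTGAA on the opposite strand and part of the UPE-box, an element of sulfur starvation promoters.
GGCT2;1: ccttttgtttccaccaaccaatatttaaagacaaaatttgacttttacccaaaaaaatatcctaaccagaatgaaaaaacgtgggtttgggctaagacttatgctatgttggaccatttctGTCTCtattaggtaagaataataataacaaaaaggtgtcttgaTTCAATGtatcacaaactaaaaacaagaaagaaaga
They began 79 and 36 bases before the start. No TGACG was in this stretch, while 3 lay further upstream and began 856, 775 and 293 bases before the start.

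**Figure D2:**
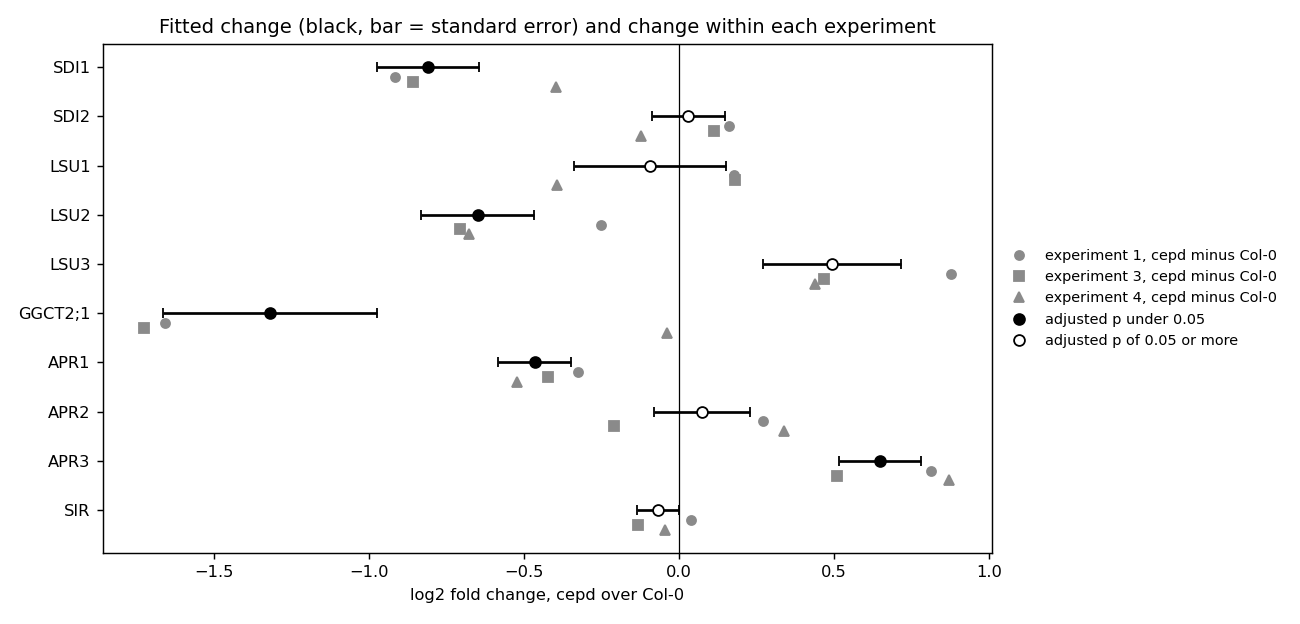
Log2 fold change of cepd over Col-0 for the 10 genes on the horizontal axis, as fitted by edgeR (black, bar for the SE, filled where the adjusted p was under 0.05) and as the difference within experiments 1, 3 and 4 (grey). The 3 grey marks share the sign of the fitted change for SDI1, LSU2, LSU3, GGCT2;1, APR1 and APR3, and experiment 4 is close to 0 for GGCT2;1 (-0.04).

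APS reductases sit in plastids, use glutathione as the electron donor and catalyse the step that is taken to exert most control over sulfate assimilation. Their genes moved apart: APR1 was lower in cepd, APR3 higher, and APR2 unresolved. APR1 (AT4G04610, chr4:2324878-2327064, plus strand) measured 149, 131 and 124 CPM in Col-0 and 119, 87.4, 97.9 and 86.5 CPM in cepd. The cepd replicate 1 came close to the lowest Col-0 library, and the others lay well under it. APR1 fell from 135 ± 12.8 CPM (SD, n = 3) to 97.7 ± 15.1 CPM (SD, n = 4), with a log2FC of -0.46 (SE 0.12, adjusted p = 0.0244 from edgeR). The 3 experiments gave -0.33, -0.42 and -0.52, and the blocked fit an adjusted p of 0.000584. Without the block, the adjusted p was 0.0681 without Col-0 replicate 3 and 0.0717, 0.0607 and 0.0553 without cepd replicates 2, 3 and 4 (0.000584 to 0.0717 over the alternatives).

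APR3 (AT4G21990, chr4:11657008-11659167, minus strand) measured 88.8, 125 and 93.1 CPM in Col-0. In cepd it reached 156, 137, 177 and 170 CPM. All 4 mutant libraries exceeded all wild-type libraries. APR3 rose from 102 ± 19.5 CPM (SD, n = 3) to 160 ± 17.9 CPM (SD, n = 4), with a log2FC of 0.65 (SE 0.13, adjusted p = 0.00909 from edgeR). The differences within experiments were 0.81, 0.51 and 0.87, and the gene passed in all 14 alternative analyses, with adjusted p between 6.23e-05 and 0.0406.

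APR2 (AT1G62180, chr1:22975530-22977885, minus strand) had 29.0, 35.0 and 21.4 CPM in Col-0 and 35.0, 27.6, 30.3 and 27.1 CPM in cepd. The cepd values lay inside the Col-0 range, and the log2FC was 0.08 (SE 0.16, adjusted p = 0.775 from edgeR). In these experiments the sign differed, with 0.27, -0.21 and 0.34. The annotation places AT1G62170 (225 bp) and AT1G08477 (782 bp) across APR2 on the opposite strand, and the 3 APR genes are similar enough in sequence that some reads could have been shared.

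The 200 bases before the start of the 3 genes are given for APR3 (chr4:11659168-11659367, minus strand), APR1 (chr4:2324678-2324877, plus strand) and APR2 (chr1:22977886-22978085, minus strand). They are shown because APR1 was lower and APR3 higher in cepd. Capitals mark TGACG, and GAGAC and CATTGAA were searched as well.
APR3: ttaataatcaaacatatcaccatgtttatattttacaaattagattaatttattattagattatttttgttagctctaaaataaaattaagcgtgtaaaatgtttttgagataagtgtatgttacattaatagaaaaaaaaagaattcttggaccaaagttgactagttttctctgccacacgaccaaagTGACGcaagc
APR1: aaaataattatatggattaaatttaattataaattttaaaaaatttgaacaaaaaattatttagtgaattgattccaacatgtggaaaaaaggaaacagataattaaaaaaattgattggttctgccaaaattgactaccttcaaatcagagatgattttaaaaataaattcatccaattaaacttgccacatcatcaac
APR2: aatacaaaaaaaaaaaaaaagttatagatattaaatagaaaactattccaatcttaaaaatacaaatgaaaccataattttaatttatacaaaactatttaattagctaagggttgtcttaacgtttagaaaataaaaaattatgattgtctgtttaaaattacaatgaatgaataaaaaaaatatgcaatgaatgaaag
The TGACG of APR3 began 10 bases before the start, and none of the searched motifs was in the stretches of APR1 and APR2.

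Summed over the 3 genes, a measure chosen after the data were seen, APS reductase transcripts were at 265 ± 26.1 CPM in Col-0 (SD, n = 3) and at 288 ± 26.5 CPM in cepd (SD, n = 4). The difference of 0.12 on the log2 scale did not pass a two-sided exact permutation test that leaves the pairing out (p = 0.314). Within experiments the sum was higher in cepd in all 3, with 310 against 267 CPM, 306 against 291 CPM and 284 against 239 CPM, while cepd replicate 2, which has no partner, was at 252 CPM. Composition differed more. On the TPM scale, which divides counts by the exon length of each gene and then scales all libraries to the same sum, APR1 made up 50.2% ± 5.45 of the APR transcripts in Col-0 (SD, n = 3) and 33.0% ± 3.46 in cepd (SD, n = 4). The APR3 share was 40.0% ± 4.89 and 57.4% ± 4.23, and that of APR2 9.87% ± 1.43 and 9.59% ± 0.789. In every cepd library APR3 exceeded APR1, whereas in Col-0 APR1 was ahead in replicates 1 and 4 and the genes were level in replicate 3 (44.3% APR1 and 44.5% APR3).

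**Figure D3:**
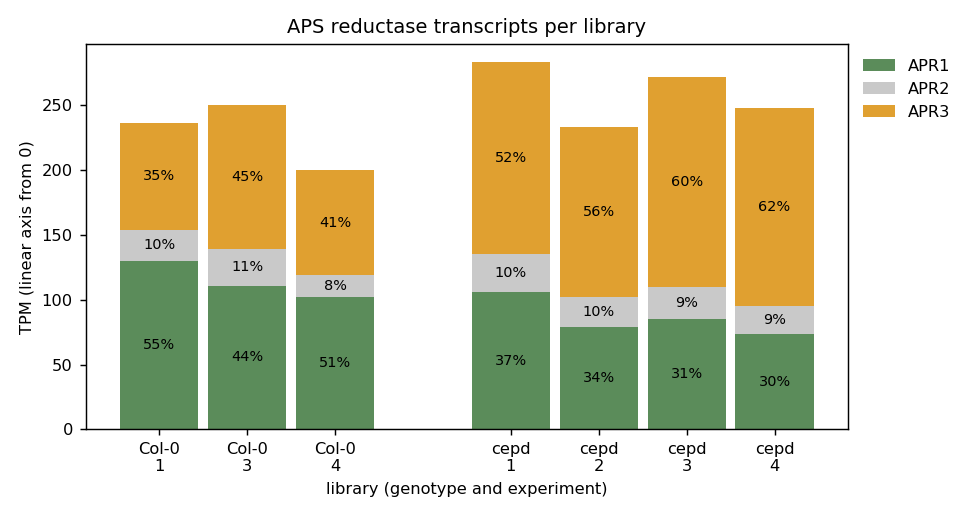
TPM of APR1, APR2 and APR3 stacked for each library on a linear axis from 0, with each gene's percentage of the sum written in its bar. The APR3 part takes 52.1% to 61.7% in the cepd libraries and 34.8% to 44.5% in the Col-0 libraries.

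SIR (AT5G04590, chr5:1319074-1323364, plus strand), the single gene for sulfite reductase, encodes the enzyme that gives sulfide with electrons from ferredoxin and siroheme as cofactor. It was the most abundant of the 10 transcripts, with 403, 456 and 415 CPM in Col-0 and 414, 389, 416 and 402 CPM in cepd. The cepd replicates 2 and 4 were below the Col-0 range, the latter by a trace, and the other 2 within it. Its log2FC of -0.07 (SE 0.07, adjusted p = 0.535 from edgeR) was the most precise of the set. Nitrite reductase, encoded by NIR1 (AT2G15620), uses the same cofactor and electron donor, and NIR1 fell from 895 ± 176 CPM (SD, n = 3) to 343 ± 27.0 CPM (SD, n = 4), with a log2FC of -1.39 (SE 0.12, adjusted p = 0.000124 from edgeR). All 5 genes listed around this cofactor and donor were lower in cepd at an adjusted p under 0.05, 4 of them past the fold threshold. Among all tested genes these shares were 8.30% and 2.45%. The median log2FC was -1.16 over the 5 genes and 0.01 over all tested genes. The 5 genes were listed with results of these data known. Besides NIR1 these are UPM1 of siroheme synthesis, with a log2FC of -1.16 (SE 0.09, adjusted p = 6.68e-05 from edgeR), and RFNR2 of ferredoxin reduction in roots, with a log2FC of -1.60 (SE 0.12, adjusted p = 5.61e-05 from edgeR). The ferredoxin gene FD3 (log2FC -1.02) and RFNR1 (log2FC -0.90), both named after their values were seen, complete the list.

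Because a ratio of counts within a library does not depend on the scaling between libraries, 8 ratios between related genes were compared by two-sided exact permutation over the 35 regroupings of the libraries, where the smallest possible p is 0.0286. The ratio of APR1 to APR3 went from 0.41 ± 0.33 on the log2 scale in Col-0 (SD, n = 3) to -0.72 ± 0.26 in cepd (SD, n = 4), a difference of -1.13, with all 4 cepd libraries below all Col-0 libraries (exact p = 0.0286). The same smallest p was reached for LSU3 over LSU2 (difference 1.12), APR1 over APR2 (-0.57) and SIR over NIR1 (1.305). After Benjamini-Hochberg adjustment over the 8 ratios these 4 stood at an adjusted exact p of 0.0571, so none passed. As they were already at the smallest possible p, this value could only have been lower if further ratios had reached it. The adjusted test therefore could not decide on these 4 ratios, and it leaves the pairing out. SDI1 over SDI2 (-0.83) and APR3 over APR2 (0.56) gave an exact p of 0.0571, LSU1 over LSU2 (0.54) of 0.0857 and LSU1 over LSU3 (-0.57) of 0.114.

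**Figure D4:**
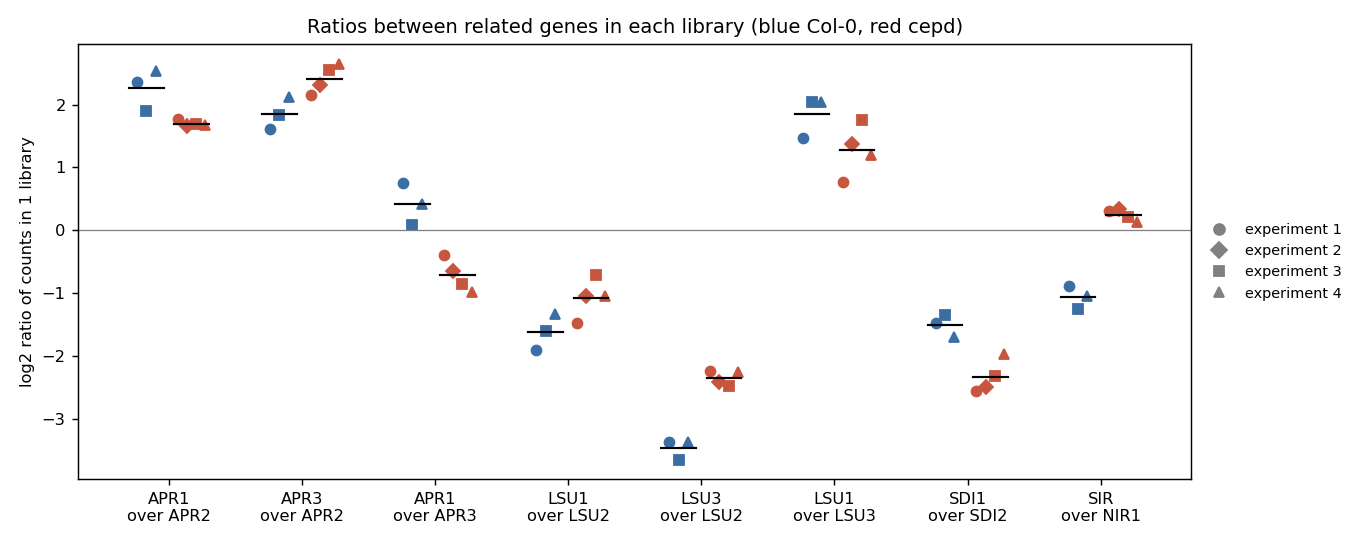
Log2 ratio of the counts of related genes within each library (vertical axis), Col-0 in blue and cepd in red, with a line at the mean and a marker shape for each experiment. The groups do not overlap for APR1 over APR2, APR3 over APR2, APR1 over APR3, LSU3 over LSU2, SDI1 over SDI2 and SIR over NIR1.

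On the TPM scale, levels in Col-0 ran from SIR (209) through APR1 (114), APR3 (91.7), APR2 (22.9), LSU2 (22.2), SDI2 (13.0), LSU1 (6.76), SDI1 (4.87) and GGCT2;1 (2.68) down to LSU3 (2.18). Neighbours in this order whose libraries overlapped were APR1 and APR3, APR2 and LSU2, LSU1 and SDI1, and GGCT2;1 and LSU3. In cepd the order was SIR (207), APR3 (149), APR1 (85.8), APR2 (24.9), LSU2 (14.6), SDI2 (13.7), LSU1 (6.51), LSU3 (3.16), SDI1 (2.84) and GGCT2;1 (1.08). There the libraries of LSU2 and SDI2, and of LSU3 and SDI1, overlapped. By these means alone, APR3 was second in cepd and LSU3 stood above SDI1 and GGCT2;1. Each of these changes of place involves genes whose libraries overlapped in Col-0 or in cepd. The sulfate reduction genes stood above the deficiency markers in both genotypes, except that APR2 and LSU2 overlapped in Col-0.

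Libraries of 1 genotype differed in how often they held its extreme value. Col-0 replicate 3 was the highest Col-0 library for 9 of the 10 genes, all but APR1, while the lowest value came from Col-0 replicate 4 for 7 genes and from Col-0 replicate 1 for 3. In cepd the highest value came from replicate 3 for 5 genes, replicate 1 for 4 and replicate 4 for 1, and the lowest from replicate 2 for 7 and replicate 4 for 3. The same count over all genes was not made. The cepd replicate 2 is also the library with the fewest counts and has no Col-0 partner from its experiment.

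Genes next to these reactions were taken from lists of the pathway, and their counts stand beside 8.30% lower and 9.64% higher among all tested genes. ATP sulfurylases and APS kinases, which stand before APS reductase or divert its substrate, had 2 of 8 tested genes lower and none higher. These were the ATP sulfurylase genes APS1, from 498 ± 19.0 CPM (SD, n = 3) to 362 ± 6.57 CPM (SD, n = 4) with a log2FC of -0.46 (SE 0.06, adjusted p = 0.000996 from edgeR), and APS3, with a log2FC of -0.49 (SE 0.09, adjusted p = 0.00427 from edgeR). APK4, an APS kinase gene, had a log2FC of -0.51 (SE 0.16, adjusted p = 0.0577 from edgeR). For cysteine synthesis, 2 of 8 genes were higher and none lower, both of them serine acetyltransferase genes that supply O-acetylserine. SERAT3;1 had a log2FC of 0.62 (SE 0.10, adjusted p = 0.00301 from edgeR) and SERAT1;1 of 0.28 (SE 0.06, adjusted p = 0.0117 from edgeR, 0.0518 without Col-0 replicate 3 and 3.00e-05 to 0.0518 over the alternatives). OASA1, the main cytosolic O-acetylserine (thiol)lyase gene, had a log2FC of 0.12 (SE 0.07, adjusted p = 0.317 from edgeR).

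Among glutathione synthesis and other gamma-glutamyl cyclotransferase genes, 1 of 4 was higher. This was GGCT2;3, a relative of GGCT2;1 that went the other way, from 14.0 ± 0.485 CPM (SD, n = 3) to 20.1 ± 0.906 CPM (SD, n = 4), with a log2FC of 0.52 (SE 0.07, adjusted p = 0.00115 from edgeR). GGCT2;2 had a log2FC of 0.13 (adjusted p = 0.313 from edgeR) and GSH2 of 0.10 (adjusted p = 0.300 from edgeR). Of 8 tested genes in the list of other sulfur starvation genes, 3 were lower and 1 higher. The root uptake transporter gene SULTR1;1 fell from 11.1 ± 1.295 to 3.67 ± 0.487 CPM (SD, n = 3 and 4), and the vascular SULTR2;1 from 63.4 ± 7.39 to 30.4 ± 4.41 CPM. In contrast, SULTR1;2, the other high-affinity uptake transporter gene, rose from 108 ± 19.4 to 158 ± 15.8 CPM, with a log2FC of 0.55 (SE 0.13, adjusted p = 0.0169 from edgeR). LSU4, named after its values were seen, had a log2FC of -0.67 (adjusted p = 0.0436 from edgeR), which lay above 0.05 in 7 of 13 alternative analyses (0.00584 to 0.174, the highest without Col-0 replicate 3).

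Of 5 listed regulators of the pathway, 3 were tested and none passed. MYB28 of glucosinolate synthesis had a log2FC of -0.16 (adjusted p = 0.135 from edgeR). Its cepd libraries (36.2 to 40.9 CPM) all lay below its Col-0 libraries (42.3 to 42.6 CPM), which held for 13.8% of all tested genes. HY5, a bZIP factor that binds APR promoters, had a log2FC of -0.04 (adjusted p = 0.816 from edgeR). For SLIM1, the central regulator of the sulfur starvation response, it was 0.02 (adjusted p = 0.907 from edgeR).

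In the 300 bases from 250 before to 50 after the annotated start, TGACG on either strand was found in SDI1, SDI2 and APR3, 3 of the 10 genes, and in 23.1% of 27443 Arabidopsis promoters of the same length. Of these genes 1 was lower, 1 higher and 1 did not pass the test. GAGAC occurred in SDI1, LSU2 and GGCT2;1 (32.8% of promoters), but in the 1000 bases before the start it occurred in SDI1, GGCT2;1 and APR1 (71.7%) and not in LSU2, so that the genes that held it depended on the window. CATTGAA occurred in LSU3 and GGCT2;1 (6.34%), and over the longer stretch in LSU2 and GGCT2;1 (21.4%). TACGTA (5.55%), which TGA factors can also bind, and the palindrome TGACGTCA (0.627%), added after the data were seen, were in none of the 10 windows of 300 bases. Over the longer stretch, TACGTA was in GGCT2;1 and APR2 (16.4% of promoters) and TGACGTCA in LSU3 (1.19%). In the 1000 bases before the start, TGACG was in 6 of 10 genes (SDI1, SDI2, LSU1, LSU3, GGCT2;1 and APR3) and in 54.1% of promoters. SDI1 held 4 copies there, the most among the 10 genes, and 2.02% of promoters held at least as many. The threshold of 4 was the count of SDI1 itself, so this share describes a promoter picked as the highest. It is not a test of the 10 genes. Each copy of the repeated stretch of 25 bases in SDI1 holds a TGACG, so not all of its sites are separate occurrences. A match is a run of letters only, and binding of factors is not analysed here.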

How the data were processed

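The authors deposited raw counts per gene for 7 root libraries. Their notes name CASAVA 1.8.2, STAR 2.5.2b-2, TAIR10, HTSeq 0.9.1 and DESeq2 2.11.40.6, with no counting mode given in the sources used here. The TruSeq kit does not mark strand.

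The tests used edgeR 4.0.16 under R 4.3.3 (filterByExpr with minimum count 10 and minimum total 15, TMM factors 0.986 to 1.02, robust quasi-likelihood test without a block, biological coefficient of variation 11.2%). The thresholds of the study were applied (adjusted p under 0.05 with a log2FC beyond 1 in size), and counts at the adjusted p alone are given beside them. Standard errors were derived from the log2FC and its F statistic. TPM used exon lengths of the TAIR10.1 RefSeq annotation (32547 of 32833 genes), which also gave coordinates and upstream sequence, with chromosome names matched. Ratios used counts + 0.5, and exact tests took Python 3.11.15 with scipy 1.17.1. The edgeR fit without a block was tested on simulated counts.

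The members and lists were chosen with earlier results of these data known. Values of all 10 members are given, and from each other list up to 3 genes with the smallest adjusted p, NIR1 and the mutated genes. FD3, RFNR1, LSU4 and LHCB2.2 fall outside this rule and were named after their values were seen. Deviations from the genotype means correlated at 0.435, 0.189 and 0.274 for experiments 1, 3 and 4, all above 0.1, and differently numbered libraries also exceeded 0.1 for Col-0 3 with cepd 4 (0.192), Col-0 1 with cepd 2 (0.136) and Col-0 4 with cepd 3 (0.135). Same-numbered libraries were treated as pairs from 1 experiment, which the labels do not state. Alternatives were this replicate block, DESeq2 1.42.0, its size factors, limma-voom (limma 3.58.1), nuclear genes only, no filter, a filter of 5 CPM in 3 libraries, leaving out each library, counts + 5 in the ratios, the longest transcript for TPM and 1000 bases of promoter.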

Additional observations from a re-analysis of the deposited data

How the results depend on the processing

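With the replicate block, no member was called lower (0 against 1), because the adjusted p of GGCT2;1 was 0.0541. The block changed no other call among the 10 genes. The 5 CPM filter removed SDI1, LSU1, LSU3 and GGCT2;1 from testing, which left 0 members called lower and 2 lower at the adjusted p alone. When each library was left out in turn, 0 to 1 members were called lower and 1 to 4 were lower at the adjusted p alone, while the number of all genes lower at the adjusted p ran from 998 of 20760 (without Col-0 replicate 3) to 2591 of 20817 (without Col-0 replicate 1), against 1710 of 20600 with all libraries. Among members that did not pass, the sign of the log2FC depended on the library left out for SDI2 (-0.031 to 0.108), LSU1 (-0.351 to 0.064) and APR2 (-0.092 to 0.251). The cause was not tested. Every log2FC of SDI1, LSU2, LSU3, GGCT2;1, APR1, APR3 and SIR kept its sign under the alternatives run, and no ratio changed sign. With the longest transcript, the TPM of LSU1 in Col-0 was 8.27 in place of 6.76. With 1000 bases of promoter, members with TGACG went from 3 to 6, with TACGTA from 0 to 2 and with TGACGTCA from 0 to 1. Of the 10 genes, LSU3 and GGCT2;1 rested on the fewest counts, and a ratio tested with 1 library left out could not reach p under 0.05.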
